A study of Mus musculus with 18 samples.

Results

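Antioxidant defence genes encode the enzymes that take superoxide and peroxides out of the cell and keep the thiol pools behind them reduced. The 10 genes examined here were Sod1, Sod2, Cat, Gpx1, Gpx4, Prdx1, Prdx2, Gsr, Txnrd1 and Hmox1, followed in thymocytes of ageing mice. Members were the probes whose gene name on the array is one of these symbols, which found 13 probes in 31 spots for 8 of the 10 genes, of 41174 distinct probes and 15935 gene symbols on the array. Cat and Prdx1 are not written as gene names on this design. Their probes, and 1 further probe each for Sod1 and Gpx1, were found by description or synonym, which adds 4 probes. These 4 probes are named as such wherever they are used, and counts of probes are over the 13 unless 17 is written. All 17 probes were well above background in both channels on all 9 arrays, and no spot of them was saturated.

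Superoxide from the mitochondria and from oxidases is turned into hydrogen peroxide by the superoxide dismutases. Catalase, the glutathione peroxidases and the peroxiredoxins then reduce peroxide, the last group with electrons handed on by thioredoxin. Glutathione reductase and thioredoxin reductase return the carriers to their reduced form at the cost of NADPH, and many genes of the system are targets of the transcription factor NRF2. Thymocytes divide fast during development, and the thymus shrinks with age.

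Isolated thymocytes of C57BL/6 mice aged 6, 16 and 24 months, 3 animals per age, were labelled with Cy3 and each hybridized on an Agilent 2-colour array with Cy5-labelled thymocyte RNA from mice aged 1 month. The design text calls that Cy5 material a pool, whereas the sample labels number 9 mice of 1 month, so it was treated as 1 control sample. Older thymocytes always carried Cy3, so age against 1 month cannot be told apart from dye, while comparisons between the older ages share the dye. The cells came from mechanically dissociated thymi after straining and red cell lysis, with no sort for a cell type, and sex is not given in the sources used here.

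Values are log2 ratios of the older mouse to the 1 month material, so that 0 is the 1 month level and a positive value is higher in the older mouse. Per array, the older mouse's channel had 79.7% to 94.2% of features well above background and the 1 month channel 90.5% to 95.4%. All 14 thymocyte markers listed were well above background on every array, with a mean log2 ratio between 0.17 and 0.43. Against 1 month 4 of them rose and 1 fell at 6 months, 6 rose and 1 fell at 16 months, and 6 rose and 2 fell at 24 months. The mean log2 ratio of 5 haemoglobin probes ranged from -1.91 to -1.18 at 6 months, from -0.66 to 1.94 at 16 months and from -1.81 to 1.43 at 24 months. Of the 10 thymic epithelial markers tested, 5 fell at 6 months, 3 at 16 months and 2 at 24 months against 1 month, and of the 11 B and plasma cell markers 1, 5 and 2 rose in the same order of ages. Of the 10 granulocyte markers, 0 passed at 6 and 16 months, and 1 rose and 4 fell at 24 months. Their summed Cy3 signal was 122990 on 16 month replicate 2, against 16766 and 8721 on the other 16 month arrays. Macrophage markers had 0, 2 and 1 rises of 14, stroma and adipocyte markers 0, 1 and 2 of 12, and 7 erythroid markers other than haemoglobin 0 calls (limma, adjusted p under 0.05). Over all tested probes 7.62%, 11.4% and 11.6% rose and 4.76%, 6.59% and 13.3% fell at 6, 16 and 24 months. In whole suspensions, fewer cells of a type and less RNA per cell cannot be told apart, and the part of these markers in the results below was not tested.

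The upstream sequence of 4 members is shown. Prdx1, Txnrd1 and the brightest Sod1 probe had mean ratios below 0 at all 3 ages, and the Prdx2 probes means above 0 with LOWESS scaling. Hmox1 also had means below 0 at all 3 ages but has no window in the sequences used. Cat, Gpx1 and Gpx4 had means above 0 at all 3 ages with LOWESS scaling, and their windows, not shown, held no match. Sod2, whose window, not shown, also held no match, had means of -0.081, 0.024 and -0.13 at 6, 16 and 24 months with LOWESS scaling. After median centring all of them were below 0. Of the other Sod1 probes, A_51_P425205 had means below 0 and A_52_P3581 means of 0.37, 0.093 and -0.25. That the genes shown with lower means are those with a match thus depends on the genes and the probe chosen. A relation of match to direction was not tested. Each line gives the 250 bases before the annotated start, from RefSeq on GRCm38.p6, 5′ to 3′ in the direction of transcription. Capitals mark matches to the core of the antioxidant response element, TGACNNNGC, on either strand, a sequence to which NRF2 can bind.
Prdx1 (chr4:116685349-116685598, plus strand): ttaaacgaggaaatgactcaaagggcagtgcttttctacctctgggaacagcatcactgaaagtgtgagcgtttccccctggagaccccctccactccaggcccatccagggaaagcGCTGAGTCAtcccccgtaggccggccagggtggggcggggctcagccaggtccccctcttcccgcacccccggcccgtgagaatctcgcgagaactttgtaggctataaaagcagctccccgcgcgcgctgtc
Txnrd1 (chr10:82858956-82859205, plus strand): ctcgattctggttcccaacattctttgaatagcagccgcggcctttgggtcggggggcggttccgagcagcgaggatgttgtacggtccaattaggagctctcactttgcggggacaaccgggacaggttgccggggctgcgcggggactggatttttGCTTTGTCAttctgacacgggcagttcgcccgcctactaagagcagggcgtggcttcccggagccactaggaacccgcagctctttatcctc
Sod1 (chr16:90220512-90220761, plus strand): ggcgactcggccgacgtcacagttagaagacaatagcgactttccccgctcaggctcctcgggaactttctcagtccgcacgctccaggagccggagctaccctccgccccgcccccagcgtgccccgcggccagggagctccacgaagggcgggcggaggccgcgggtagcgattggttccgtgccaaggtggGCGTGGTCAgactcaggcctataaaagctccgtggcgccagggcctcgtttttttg
Prdx2 (chr8:84969372-84969621, plus strand): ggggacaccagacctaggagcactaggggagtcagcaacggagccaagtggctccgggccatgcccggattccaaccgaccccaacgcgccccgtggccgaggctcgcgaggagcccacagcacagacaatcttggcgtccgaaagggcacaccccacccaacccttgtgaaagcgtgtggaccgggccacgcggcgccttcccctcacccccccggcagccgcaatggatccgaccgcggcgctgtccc

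The table of upstream sequences held 13 windows for 8 of the 10 genes, with none for Gsr and Hmox1, and 3 windows of 3 genes had a match to the core. The match was TGACTCAGC in Prdx1, from 133 to 125 bases before the start, TGACAAAGC in Txnrd1, from 92 to 84 bases before it, and TGACCACGC in Sod1, from 56 to 48 bases before it. All 3 matches lie on the strand opposite to transcription, so the capitals above show their reverse complement. Txnrd1 has 3 annotated starts with a window, and the other two windows had no match. Of the 32851 windows of the same length in the table, 10.16% held the core. The AP-1 letters TGACTCA occur in 4.46% of windows and, among these genes, in Prdx1, where the letters lie at 2 places, of which 1 overlaps the core. A match of letters is a description of the window, not a site.

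Against 1 month, thymocytes of every older age had less Txnrd1 signal, and Prdx1 signal was lower at 16 and 24 months. Prdx2 signal was higher at every age with LOWESS scaling, but after median centring 1 of its 3 probes was below 1 month at all ages and the other two at 24 months. Of the 13 probes, 5 rose and 1 fell at 6 months, 4 rose and 1 fell at 16 months, and 5 rose and 2 fell at 24 months (limma, Benjamini-Hochberg adjusted p under 0.05 over 37442 probes). Over all tested probes the share past the threshold was 12.4% at 6 months, 18% at 16 months and 24.9% at 24 months. By direction, 7.62%, 11.4% and 11.6% of all probes rose and 4.76%, 6.59% and 13.3% fell at these ages. Without 6 month replicate 2, 0 of the 13 passed at 6 months, and 7 had an unadjusted p under 0.05, where 0.801% of all probes passed. The rises of the members depended on how the dyes were scaled. With each array's log ratios centred on the median instead of scaled along the intensity by LOWESS, 1 probe rose and 4 fell at 6 months, 1 rose and 3 fell at 16 months, and 1 rose and 7 fell at 24 months. The rise at 24 months was a Sod1 probe. Of the 13, only Sod1 A_52_P3581, at 0.30, and Sod1 A_51_P425205, at 0.012, lay above 0 there. Over all probes the share called after median centring was 52.4%, 44.5% and 70.9%, of which 27.9%, 26.1% and 39.6% of all probes were lower, so these counts of members are read against a high background. The median of the 13 probes was 0.12, 0.16 and 0.068 on the log2 scale at 6, 16 and 24 months, against -0.013, -0.014 and -0.020 over all tested probes. After median centring it was -0.27, -0.29 and -0.50.

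**Figure D1:**
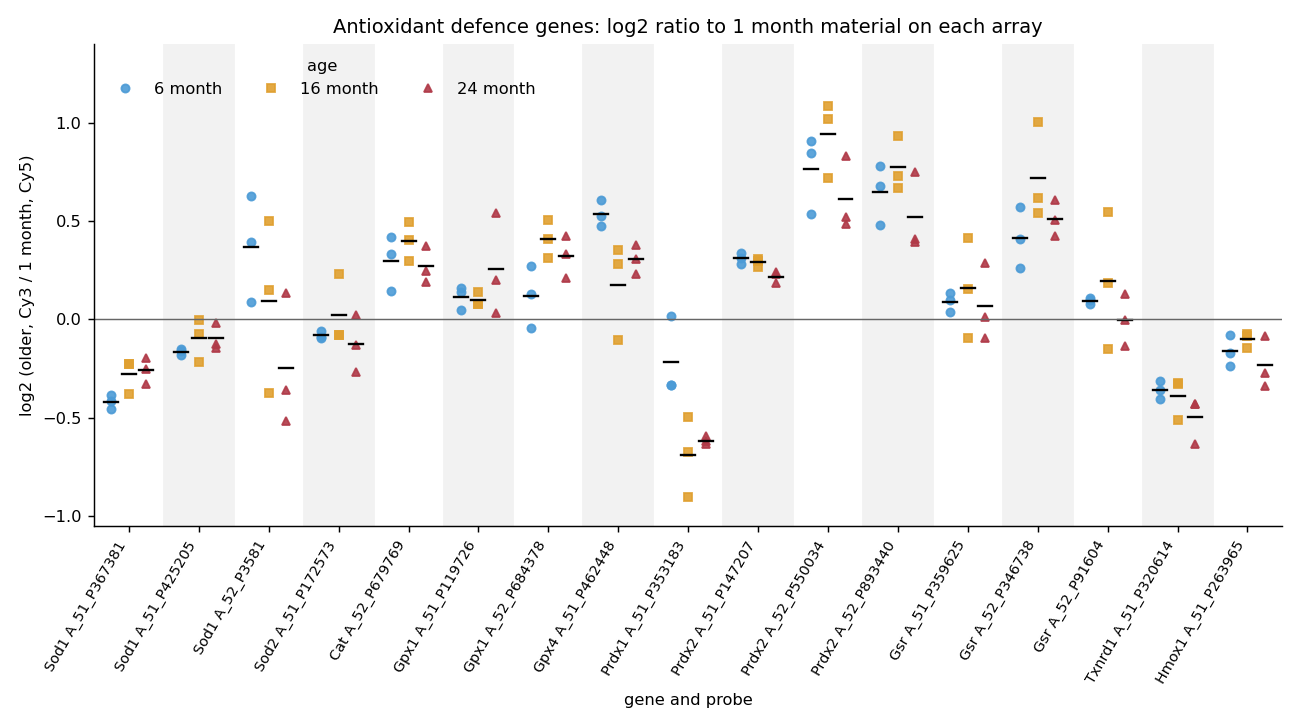
Log2 ratio of the older mouse to the 1 month material (vertical axis) for each of the 17 probes (horizontal axis), 1 point per array, in the order 6, 16 and 24 months within a probe, with short black lines at the mean of 3 arrays. All 9 points of Txnrd1 lie below 0 and all 9 points of each Prdx2 probe lie above it. Median centring turns the mean of Prdx2 A_51_P147207 below 0 at all 3 ages, and those of the other Prdx2 probes at 24 months.

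The 2 ways of scaling differed by an amount that ran broadly with the brightness of the probe. At 24 months, median centring moved the dimmest member probe, Sod1 A_52_P3581 with a median Cy3 signal of 399, by 0.55 on the log2 scale relative to LOWESS. It moved the brightest, Sod1 A_51_P367381 with a median Cy3 signal of 70262, by -1.24. Txnrd1, with a median Cy3 signal of 7733, moved by -0.82, and the most intense Prdx2 probe, with 29199, moved by -1.06. Between these ends the shift ran from positive to negative with rising signal, though not at every step. The members below 1 month under both scalings at all 3 ages were Txnrd1, Prdx1, Hmox1 and the Sod1 probe A_51_P367381, by mean value. Median centring lowered each of these probes at every age. It could therefore not turn a mean below 0, and their kept sign is no test of the falls. No member probe past the threshold as higher stayed higher at 24 months under median centring.

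**Figure D2:**
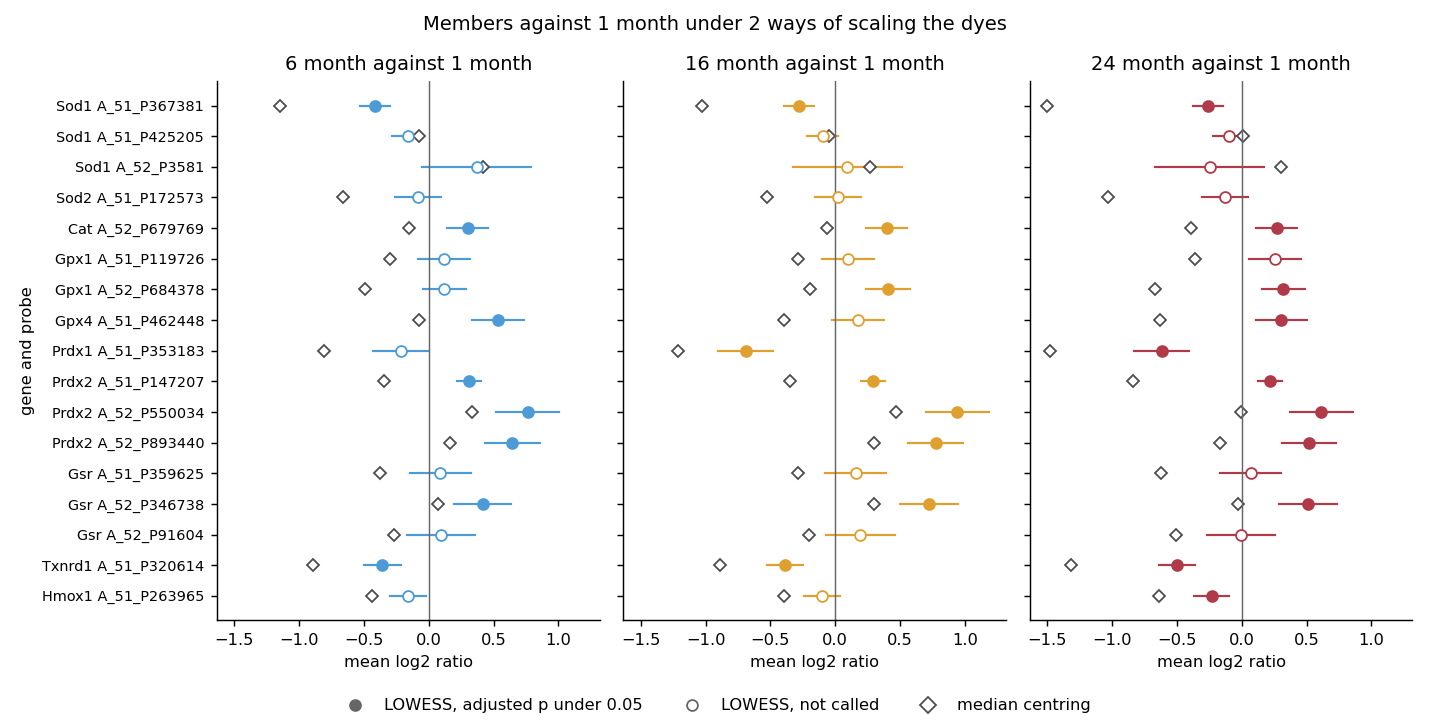
Mean log2 ratio to 1 month (horizontal axis) of each of the 17 probes (vertical axis) at 6, 16 and 24 months. Circles with 95% confidence intervals are LOWESS-scaled values, filled where the adjusted p is under 0.05. Diamonds are the means after median centring, which put Prdx2 A_51_P147207, Cat and Gpx4 below 0 at every age and Txnrd1 and Prdx1 further below 0.

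Superoxide dismutases gave no single answer across probes. SOD1 is the copper and zinc enzyme of the cytosol and SOD2 the manganese enzyme of the mitochondrial matrix. The brightest Sod1 probe, A_51_P367381, found by its description, had log2 ratios of -0.41, -0.45 and -0.39 at 6 months, -0.23, -0.23 and -0.38 at 16 months and -0.33, -0.25 and -0.20 at 24 months. All 9 values lie below 0, and the 3 arrays of 6 months lie below the other 6. Sod1 on this probe fell by 0.42 at 6 months (SE 0.050, adjusted p = 0.00577), by 0.28 at 16 months (SE 0.050, adjusted p = 0.0103) and by 0.26 at 24 months (SE 0.050, adjusted p = 0.0116), and it stayed below 0 after median centring. Those calls were lost without 6 month replicate 2 (adjusted p = 0.0551), 16 month replicate 2 or 3 (adjusted p = 0.0541 and 0.0547) and 24 month replicate 1 (adjusted p = 0.0653).

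The Sod1 probe A_51_P425205 is printed in 10 spots and reads a cDNA clone with a much dimmer signal. Its log2 ratios were -0.18, -0.15 and -0.16 at 6 months, -0.0017, -0.21 and -0.076 at 16 months and -0.13, -0.15 and -0.017 at 24 months, all below 0. With LOWESS scaling no age passed the threshold, with a limma adjusted p of 0.0798, 0.233 and 0.213 at 6, 16 and 24 months. Its means after median centring were -0.079, -0.046 and 0.012. The SD between its 10 spots on an array was between 0.061 and 0.31, while its 9 array values span 0.21. The last Sod1 probe, A_52_P3581, is named after the same clone and had 0.63, 0.39 and 0.090 at 6 months, -0.37, 0.15 and 0.50 at 16 months and 0.13, -0.36 and -0.52 at 24 months. It is the widest of all 17, with 1.14 between its lowest and highest array. No age differed from 1 month past the threshold with LOWESS scaling. Its means were 0.37, 0.093 and -0.25 at 6, 16 and 24 months, and 0.42, 0.27 and 0.30 after median centring. The sign at 24 months thus turned with the scaling.

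Sod2 had log2 ratios of -0.059, -0.089 and -0.094 at 6 months, -0.081, 0.23 and -0.078 at 16 months and -0.27, -0.13 and 0.021 at 24 months. Arrays lay on both sides of 0 at 16 and 24 months. The 95% confidence interval against 1 month was -0.26 to 0.095 at 6 months, -0.15 to 0.20 at 16 months and -0.30 to 0.050 at 24 months, and none passed the threshold with LOWESS scaling. Its mean was -0.081, 0.024 and -0.13 at 6, 16 and 24 months, and -0.66, -0.53 and -1.03 after median centring, which turns the sign at 16 months.

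Catalase, which splits hydrogen peroxide into water and oxygen in the peroxisome, was read by 1 probe found by synonym. Cat had log2 ratios of 0.42, 0.33 and 0.15 at 6 months, 0.49, 0.40 and 0.30 at 16 months and 0.19, 0.24 and 0.37 at 24 months. All 9 lie above 0 and the ages overlap. Cat rose by 0.30 (SE 0.068, adjusted p = 0.0304) at 6 months, 0.40 (SE 0.068, adjusted p = 0.0087) at 16 months and 0.27 (SE 0.068, adjusted p = 0.0266) at 24 months, but median centring gave -0.16, -0.062 and -0.39. Calls were lost at 6 months without 6 month replicate 1 or 2 or 16 month replicate 2 (adjusted p between 0.0506 and 0.160), at 16 months without 16 month replicate 2 (adjusted p = 0.0628), and at 24 months without any 1 array of that age (adjusted p between 0.0647 and 0.102).

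Glutathione peroxidases were read by 3 probes. GPX1 is the abundant cytosolic form that reduces hydrogen peroxide, and GPX4 reduces lipid peroxides in membranes. The Gpx1 probe A_51_P119726 had 0.16, 0.049 and 0.14 at 6 months, 0.079, 0.14 and 0.079 at 16 months and 0.54, 0.034 and 0.20 at 24 months, with 24 month replicate 1 the highest of the 9. With LOWESS scaling it did not pass at any age, the nearest being 24 months at 0.26 (SE 0.086, limma adjusted p = 0.0615). That value was 0.12 without 24 month replicate 1 (adjusted p = 0.254) and 0.37 without 24 month replicate 2 (adjusted p = 0.0375). Median centring put this probe at -0.30, -0.29 and -0.36 at 6, 16 and 24 months. The brighter Gpx1 probe A_52_P684378, found by description, had 0.27, 0.13 and -0.042 at 6 months, 0.41, 0.50 and 0.31 at 16 months and 0.42, 0.21 and 0.33 at 24 months. At 16 months its 3 arrays all lay above those of 6 months. It rose by 0.41 (SE 0.073, adjusted p = 0.01) at 16 months and by 0.32 (SE 0.073, adjusted p = 0.0193) at 24 months against 1 month, values that median centring turned to -0.20 and -0.67. Those calls were lost without 16 month replicate 2 (adjusted p = 0.0784) and without 24 month replicate 1 or 3 (adjusted p between 0.0589 and 0.0952).

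Gpx4 had 0.52, 0.61 and 0.47 at 6 months, -0.11, 0.28 and 0.35 at 16 months and 0.38, 0.23 and 0.31 at 24 months. The 3 arrays of 6 months lay above all others, and 16 month replicate 1 alone lay below 0. Gpx4 rose by 0.53 (SE 0.086, adjusted p = 0.0116) at 6 months and by 0.31 (SE 0.086, adjusted p = 0.0373) at 24 months, and was at 0.18 (SE 0.086, adjusted p = 0.192) at 16 months. At 16 months it was at 0.32 without 16 month replicate 1 (adjusted p = 0.0299) and at 0.087 without 16 month replicate 3 (adjusted p = 0.600). Median centring gave -0.079, -0.39 and -0.63 at 6, 16 and 24 months. The call at 24 months was lost without any 1 of the 3 arrays of that age, any 1 of the 6 month arrays or 16 month replicate 2, with an adjusted p between 0.0502 and 0.147, and the call at 6 months without 6 month replicate 2 (adjusted p = 0.0889).

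Peroxiredoxins reduce peroxides with a reactive cysteine that thioredoxin restores. PRDX1 and PRDX2 are the cytosolic pair, and PRDX2 is also one of the most abundant proteins of red cells. Prdx1, read by 1 probe found by description, had -0.33, -0.34 and 0.015 at 6 months, -0.90, -0.67 and -0.50 at 16 months and -0.60, -0.62 and -0.64 at 24 months. Only 6 month replicate 3 lay above 0, and no array of 16 or 24 months overlapped those of 6 months. Prdx1 fell by 0.69 at 16 months (SE 0.092, adjusted p = 0.00413) and by 0.62 at 24 months (SE 0.092, adjusted p = 0.00537), a 1.61-fold and a 1.53-fold lower signal than at 1 month. At 6 months it was at -0.22 (SE 0.092, adjusted p = 0.151). Median centring gave -0.81, -1.21 and -1.48 at 6, 16 and 24 months, a downward shift that could not turn a fall.

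Prdx2 was read by 3 probes that all lay above 1 month on all 9 arrays. The 10-spot probe A_51_P147207 had 0.34, 0.31 and 0.28 at 6 months, 0.31, 0.26 and 0.29 at 16 months and 0.23, 0.19 and 0.24 at 24 months. Its 9 values span 0.15, the narrowest range of the 17 probes, and the SD between its 10 spots on an array was between 0.012 and 0.051. It rose by 0.31 (SE 0.040, adjusted p = 0.00642) at 6 months, 0.29 (SE 0.040, adjusted p = 0.0046) at 16 months and 0.22 (SE 0.040, adjusted p = 0.00975) at 24 months. Without 6 month replicate 2 the adjusted p at 6 months was 0.0605, and without 24 month replicate 1 that at 24 months was 0.0528. Median centring turned these rises to -0.34, -0.35 and -0.84.

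The other two Prdx2 probes gave larger differences at dimmer signals. Probe A_52_P550034 had 0.84, 0.91 and 0.54 at 6 months, 1.08, 1.02 and 0.72 at 16 months and 0.49, 0.52 and 0.83 at 24 months. It rose by 0.76 (SE 0.10, adjusted p = 0.00754) at 6 months, 0.94 (SE 0.10, adjusted p = 0.00258) at 16 months and 0.61 (SE 0.10, adjusted p = 0.008) at 24 months, which is 1.92-fold at 16 months. Median centring left 0.33 and 0.47 at 6 and 16 months and turned 24 months to -0.0090. Probe A_52_P893440 had 0.78, 0.68 and 0.48 at 6 months, 0.93, 0.73 and 0.67 at 16 months and 0.41, 0.39 and 0.75 at 24 months, with rises of 0.65, 0.78 and 0.52 and adjusted p of 0.00816, 0.00303 and 0.00881 at 6, 16 and 24 months, where median centring left 0.16 and 0.30 and turned the last to -0.17. Without 6 month replicate 2 the adjusted p of these 2 probes at 6 months was 0.0657 and 0.0674. The 3 probes share a direction with LOWESS scaling and differ in size, from 0.22 to 0.61 at 24 months.

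The Prdx2 values were set beside those of the haemoglobin probes on the same arrays. The haemoglobin mean was -1.91, -1.89 and -1.18 at 6 months, 1.94, 1.35 and -0.66 at 16 months and -1.81, 0.45 and 1.43 at 24 months. The 10-spot Prdx2 probe was at 0.34 and 0.31 on the arrays with the lowest haemoglobin and at 0.31 on the array with the highest. Prdx2 A_52_P550034 was highest, at 1.08 and 1.02, on the 16 month arrays with haemoglobin at 1.94 and 1.35. It was lowest, at 0.49, on the 24 month array with haemoglobin at -1.81. On the 6 month arrays with haemoglobin at -1.91 and -1.89 it was at 0.84 and 0.91. Within 16 and within 24 months its values rose in the order of haemoglobin. Prdx2 A_52_P893440 was highest at both ages on the array with the most haemoglobin. Within 6 months, both of these probes were lowest on the array with the most haemoglobin. These orders within an age were not tested. With the haemoglobin mean as a covariate in the fit, 2 of the 13 probes were called at 6 months, 5 at 16 months and 8 at 24 months, beside 1.22%, 9.81% and 22.7% of all probes. The covariate gave Prdx2 A_52_P550034 a difference between 16 and 6 months of -0.055, where the fit without it gave 0.18.

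**Figure D3:**
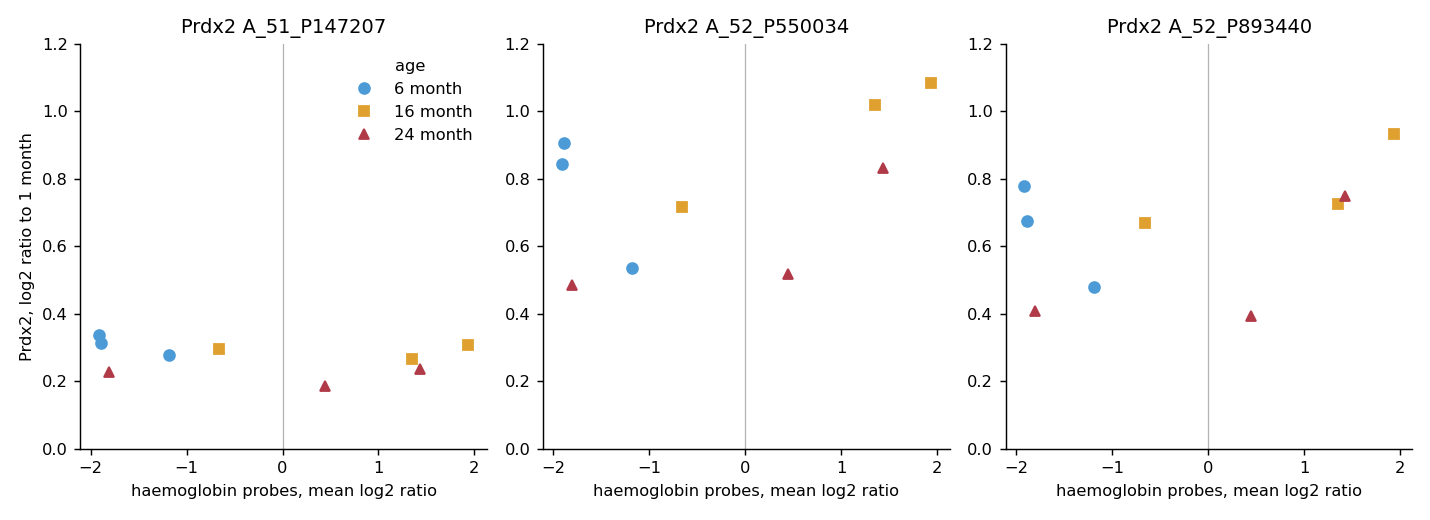
Log2 ratio of the 3 Prdx2 probes to 1 month (vertical axes, LOWESS scaling) against the mean log2 ratio of 5 haemoglobin probes (horizontal axes) on the 9 arrays. The most intense Prdx2 probe stays between 0.19 and 0.34 while haemoglobin spans -1.91 to 1.94. Median centring puts this probe below 0 at all 3 ages.

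Reductases refill the carriers. GSR reduces oxidised glutathione and TXNRD1, a selenoprotein, reduces cytosolic thioredoxin. Of the 3 Gsr probes, A_52_P346738 had 0.57, 0.41 and 0.26 at 6 months, 0.54, 1.00 and 0.62 at 16 months and 0.42, 0.60 and 0.50 at 24 months, all above 0, and 16 month replicate 2 was the highest. It rose by 0.41 (SE 0.097, adjusted p = 0.0326) at 6 months, 0.72 (SE 0.097, adjusted p = 0.00421) at 16 months and 0.51 (SE 0.097, adjusted p = 0.0109) at 24 months, with 0.070, 0.30 and -0.031 after median centring. The call at 6 months was lost without any 1 array of that age (adjusted p between 0.0538 and 0.150) and that at 24 months without 24 month replicate 2 (adjusted p = 0.0542). The probe disagreed with its partners. Gsr A_51_P359625 had 0.097, 0.037 and 0.13 at 6 months, -0.098, 0.41 and 0.16 at 16 months and -0.095, 0.29 and 0.013 at 24 months, and Gsr A_52_P91604 had 0.078, 0.096 and 0.11 at 6 months, -0.15, 0.55 and 0.18 at 16 months and -0.14, 0.13 and -0.0058 at 24 months, with arrays on both sides of 0 at 16 and 24 months. With LOWESS scaling no age passed the threshold for these 2 probes, whose limma adjusted p lay between 0.269 and 0.981. A rise of Gsr thus rests on 1 probe of 3. Median centring put the other probes below 1 month, A_51_P359625 at -0.37, -0.29 and -0.62 and A_52_P91604 at -0.27, -0.20 and -0.50.

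Txnrd1 had -0.36, -0.40 and -0.31 at 6 months, -0.51, -0.33 and -0.33 at 16 months and -0.43, -0.43 and -0.63 at 24 months. All 9 arrays lay below 0, and 24 month replicate 3 was the lowest. Txnrd1 fell by 0.36 at 6 months (SE 0.061, adjusted p = 0.0137), by 0.39 at 16 months (SE 0.061, adjusted p = 0.00675) and by 0.50 at 24 months (SE 0.061, adjusted p = 0.00334). Its signal was 1.41-fold lower at 24 months than at 1 month, and median centring gave -0.89, -0.89 and -1.32. The call at 6 months was lost without 6 month replicate 1 or 2, with an adjusted p of 0.0561 and 0.101.

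Heme oxygenase 1, which breaks down haem and is a common marker of oxidative stress, was read by 1 probe. Hmox1 had -0.079, -0.24 and -0.17 at 6 months, -0.14, -0.076 and -0.086 at 16 months and -0.084, -0.27 and -0.34 at 24 months, with all 9 arrays below 0 and the 3 ages overlapping. It fell by 0.23 at 24 months (SE 0.059, adjusted p = 0.028). At 6 months it was at -0.16 (SE 0.059, adjusted p = 0.11) and at 16 months at -0.10 (SE 0.059, adjusted p = 0.263). The call at 24 months was lost without 24 month replicate 2 or 3, with an adjusted p of 0.108 and 0.110, and after median centring the means were -0.43, -0.40 and -0.64.

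Between the older ages, where the dye is the same, no member passed the threshold. For 24 against 6 months, 0 of 13 probes were called by limma after Benjamini-Hochberg adjustment, and 1 had an unadjusted p under 0.05. Over all 37442 probes 0 were called in this comparison, 3412 had an unadjusted p under 0.05, and the smallest adjusted p was 0.1985. For 16 against 6 months 0 of 13 were called with 1 at an unadjusted p under 0.05, and for 24 against 16 months 0 of 13 with 0, again with 0 calls over all probes, of which 2389 and 1786 had an unadjusted p under 0.05. The same fit with the haemoglobin covariate, the authors' deposited score, normexp with loess, median centring or the Cy3 channel alone called 0 member probes in each of the 3 comparisons.

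Arrays of 24 and 6 months did not overlap for 4 of the 13 probes, where 15.7% of all tested probes did not overlap (5.76% higher and 9.94% lower at 24 months). The 4 were Gpx4, Txnrd1 and the 10-spot Prdx2 probe, all lower at 24 months, and the 10-spot Sod1 probe, higher at 24 months. Gpx4 had 0.38, 0.23 and 0.31 at 24 months, against 0.52, 0.61 and 0.47 at 6 months, a difference of -0.23 (SE 0.12, adjusted p = 0.601). Txnrd1 differed by -0.14 (SE 0.086, adjusted p = 0.644), Prdx2 A_51_P147207 by -0.093 (SE 0.056, adjusted p = 0.638) and Sod1 A_51_P425205 by 0.069 (SE 0.075, adjusted p = 0.793), the last of which turned to -0.031 in the Cy3 channel alone. Of the 4 further probes, Prdx1 differed by -0.40 (SE 0.13, adjusted p = 0.497), the largest non-overlapping difference of the 17. The Sod1 probe A_51_P367381 differed by 0.16 (SE 0.071, adjusted p = 0.554), which median centring turned to -0.35.

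Sod1 A_52_P3581 differed between 24 and 6 months by -0.62, with a 95% confidence interval of -1.21 to -0.021 and an unadjusted p of 0.0442 (limma, adjusted p = 0.545). The difference was -0.25 with normexp and loess, -0.11 with median centring and -0.19 with the haemoglobin covariate. Its arrays overlap, since 24 month replicate 1 at 0.13 lay above 6 month replicate 3 at 0.090. The other Sod1 probes moved the opposite way, by 0.069 and 0.16, so Sod1 has no direction between these ages that its 3 probes share.

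Arrays of 16 and 6 months did not overlap for 1 of the 13 probes, Gpx4, where the share over all probes was 13.8% (7.18% higher and 6.63% lower at 16 months). Gpx4 differed at 16 months by -0.36 (95% confidence interval -0.64 to -0.077, adjusted p = 0.769). Among the 4 further probes Prdx1 differed by -0.47 (SE 0.13, adjusted p = 0.769), Gpx1 A_52_P684378 by 0.29 (SE 0.10, adjusted p = 0.769) and Sod1 A_51_P367381 by 0.14 (SE 0.071, adjusted p = 0.769), each with arrays that did not overlap. For 24 against 16 months 1 of 13 did not overlap, the 10-spot Prdx2 probe at -0.071 (SE 0.056, adjusted p = 0.862), beside 10.5% of all probes (4.22% higher and 6.24% lower at 24 months). Apart from Sod1 A_52_P3581, the 95% confidence intervals of the differences between older ages lay between -0.77 and 0.62 on the log2 scale, with 3 arrays per age.

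**Figure D4:**
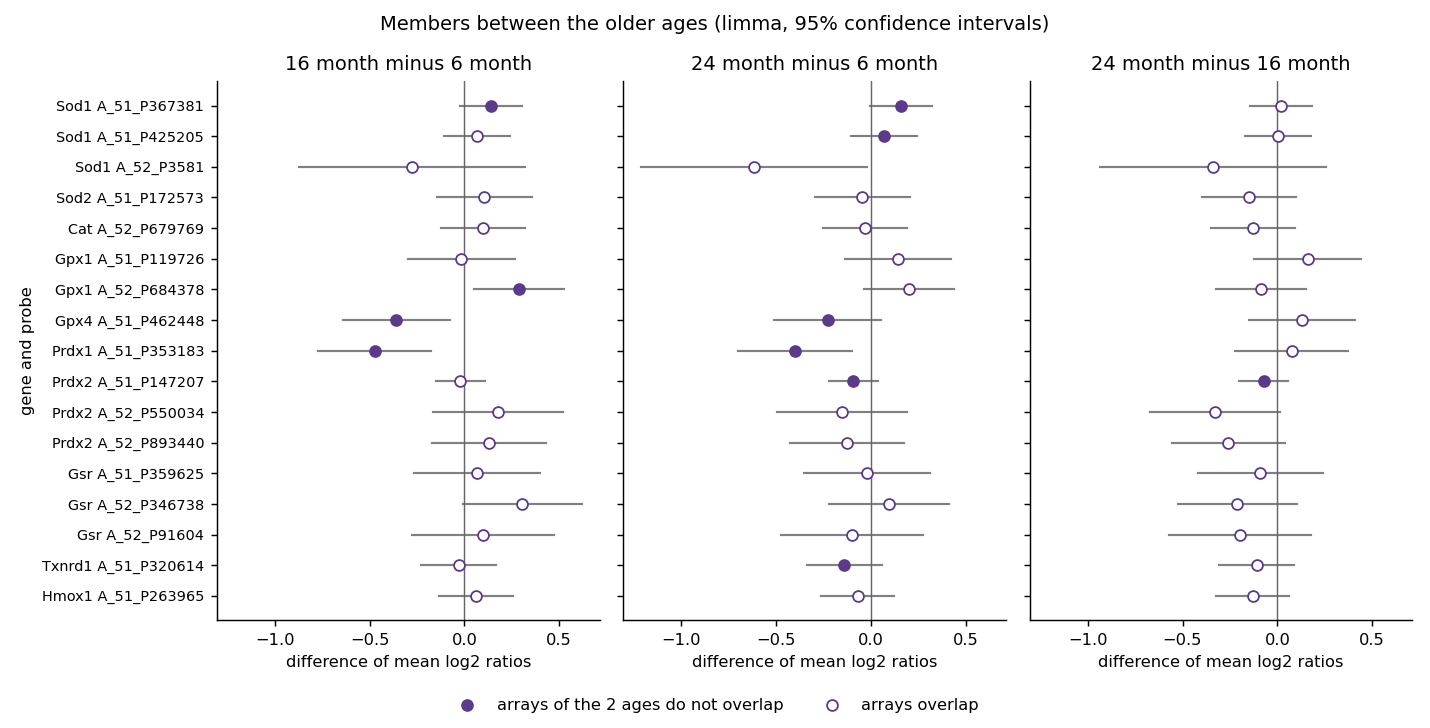
Difference of mean log2 ratios (horizontal axis) between 16 and 6, 24 and 6, and 24 and 16 months for each of the 17 probes (vertical axis), older minus younger, with 95% confidence intervals from limma. Filled circles mark probes whose 3 arrays of one age do not overlap the 3 of the other, such as Gpx4 and Prdx1 in both comparisons with 6 months; no adjusted p was under 0.05. Median centring turns Sod1 A_51_P367381 at 24 against 6 months to -0.35, and the Cy3 channel alone turns Sod1 A_51_P425205 there to -0.031.

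Over the 9 arrays, the log ratios of Gpx4 were most like those of Acsm2 (Pearson r = 0.97), Rab14 (0.95) and Spin1 (0.95). Those of Sod1 A_52_P3581 were most like Setd1a (0.96), Rp9 (0.96) and Psmb7 (0.96), and those of Gsr A_52_P346738 were most like Paxip1 (0.99), Nudc (0.97) and Abhd16a (0.96). The 3 probes were those with the smallest F test p over the 3 ages among the 13, 1 per gene. These are the highest of 15229 symbols over 9 points that share 1 reference, and they are given as a description.

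Genes around the members were counted in 8 lists, with 1 probe per gene. In none of the lists was a gene called between the older ages, as for all probes. Against 1 month, 12.4%, 18% and 24.9% of all tested probes passed at 6, 16 and 24 months with LOWESS scaling. By direction, 7.62%, 11.4% and 11.6% rose and 4.76%, 6.59% and 13.3% fell. After median centring 24.5%, 18.4% and 31.3% of all probes rose and 27.9%, 26.1% and 39.6% fell. The counts below are read beside these shares, and no list was tested against them. The list of other superoxide and peroxide enzymes had 16 genes tested, of which 4 rose and 2 fell at 6 months, 3 rose and 3 fell at 16 months and 4 rose and 4 fell at 24 months. After median centring 3 rose and 4 fell, 2 rose and 5 fell, and 4 rose and 8 fell. Sesn3, a sestrin that takes part in peroxide and nutrient signalling, fell by 0.62, 0.53 and 0.77 at 6, 16 and 24 months. Prdx5, a peroxiredoxin of mitochondria and peroxisomes, rose by 0.54, 0.53 and 0.44, but was at -0.24 at 24 months after median centring. Gpx6 rose by 1.16 (SE 0.27, adjusted p = 0.0202) at 24 months and Gpx2 by 0.55 (SE 0.12, adjusted p = 0.0267) at 6 months, with the same sign under both scalings. Gpx6 was at 0.44 under normexp and loess, and Gpx2 at 0.34 with the haemoglobin covariate.

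The thioredoxin and glutaredoxin list had 15 genes tested, of which 3 rose and 1 fell at 6 months, 3 rose and 5 fell at 16 months and 3 rose and 6 fell at 24 months. After median centring 1 rose and 8 fell, 1 rose and 5 fell, and 0 rose and 9 fell. Txnl1, a thioredoxin-like protein of the cytosol, fell by 0.59, 0.63 and 0.73 at 6, 16 and 24 months. Glrx3, a glutaredoxin of iron-sulphur cluster handling, fell by 0.52 at 16 months and by 0.57 at 24 months. Txndc12, a thioredoxin-fold protein of the endoplasmic reticulum, rose by 0.68, 0.92 and 0.67. These 3 genes kept their sign under both scalings. Median centring lowered all 3, so only the sign of Txndc12 could have turned. Under normexp and loess Txndc12 was at 0.43 at 24 months. Nxn, nucleoredoxin, rose by 0.38, 0.48 and 0.27, with -0.18 at 24 months after median centring. Txn1, the substrate of TXNRD1, was chosen after its values were seen. It fell by 0.46 at 16 months (SE 0.087, adjusted p = 0.0118) and by 0.32 at 24 months (adjusted p = 0.0332), with -1.16 and -1.49 after median centring.

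The NRF2 list mixes activators, repressors and targets of that factor, so its counts and medians give no direction of NRF2 activity. Other genes that are targets of NRF2 are counted in the other lists. Of 13 genes tested, 0 rose and 2 fell at 6 months, 1 rose and 4 fell at 16 months and 1 rose and 6 fell at 24 months, with medians of -0.14, -0.31 and -0.23. After median centring 1 rose and 7 fell, 0 rose and 8 fell, and 1 rose and 11 fell at these ages, beside falls of 27.9%, 26.1% and 39.6% of all probes. With the haemoglobin covariate 0 of its genes fell at 6 months, 2 at 16 months and 6 at 24 months. Over all probes 0.243%, 3.41% and 11.9% fell with that covariate. Nqo1, a quinone reductase and classic NRF2 target, fell by 0.34, 0.40 and 0.29 at 6, 16 and 24 months, with -0.21, -0.23 and -0.13 under normexp and loess. Sqstm1, the autophagy receptor that binds KEAP1, fell by 0.46 at 24 months, and Rbx1, a ring subunit of cullin ligases, fell by 0.34 at 16 months and by 0.33 at 24 months. Mafk, a small MAF partner of NRF2, rose by 0.39 at 16 months and 0.52 at 24 months, with 0.24 and 0.28 under normexp and loess. Nfe2l2, which encodes NRF2 itself and was chosen after its values were seen, fell by 0.24, 0.32 and 0.30 at 6, 16 and 24 months, with an adjusted p of 0.0296, 0.00807 and 0.00875.

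The glutathione list had 21 genes tested. At 6 months 3 rose and 1 fell, at 16 months 4 rose and 2 fell, and at 24 months 2 rose and 1 fell. After median centring 5 rose and 11 fell, 4 rose and 5 fell, and 6 rose and 11 fell. Slc7a11, the cystine transporter, rose by 1.27 (SE 0.34, adjusted p = 0.0471) at 6 months, Gsta3, a glutathione transferase, by 0.61 (SE 0.15, adjusted p = 0.0319) and Gss, glutathione synthetase, by 0.44 (SE 0.11, adjusted p = 0.0281) at 16 months, all with the same sign after median centring. Gsta3 was at 0.28 under normexp and loess, and Slc7a11 at 0.57 with the haemoglobin covariate. Gstt2, a glutathione transferase, rose by 0.39, 0.40 and 0.29 at the 3 ages, the last of which turned to -0.13 after median centring.

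The NADPH list had 12 genes tested, of which 3 rose and 0 fell at 6 months, 6 rose and 1 fell at 16 months and 5 rose and 1 fell at 24 months, with medians of 0.27, 0.33 and 0.26. After median centring 1 rose and 3 fell, 2 rose and 3 fell, and 2 rose and 6 fell. Idh2, the mitochondrial NADP-dependent isocitrate dehydrogenase, rose by 0.63 at 16 months and 0.48 at 24 months, and its cytosolic counterpart Idh1 rose by 0.62 at 24 months, both with the same sign after median centring. Under normexp and loess Idh1 was at 0.18 there, and median centring raised it to 0.86, so its sign could not have turned. Pgls and Tkt, of the pentose phosphate pathway, rose by 0.59 and 0.44 at 24 months and turned to -0.098 and -0.56 after median centring.

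The haem and iron list had 13 genes tested, with 3 rising and 1 falling at 6 months, 4 and 1 at 16 months and 4 and 0 at 24 months. Median centring gave 0 rises and 5 falls, 0 and 3, and 0 and 8. Ftl1, the ferritin light chain, rose by 0.42, 0.69 and 0.70, and median centring gave -0.19, 0.079 and -0.29. Fth1, the ferritin heavy chain, fell by 0.29 at 6 months and by 0.19 at 16 months, with 1 array saturated. Tfrc, the transferrin receptor, rose by 0.35, 0.31 and 0.29, and Alas1, of haem synthesis, by 0.28 at 16 months, with -0.040 and -0.12 for Tfrc at 16 and 24 months and -0.033 for Alas1 at 16 months after median centring.

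The selenoprotein list had 15 genes tested, of which 0 rose and 0 fell at 6 months, 1 rose and 1 fell at 16 months and 2 rose and 3 fell at 24 months. Selenof, a selenoprotein of the endoplasmic reticulum, fell by 0.33 at 16 months and by 0.38 at 24 months, and median centring moved it further below 0. In the list as a whole, median centring gave 2 rises and 6 falls, 1 and 4, and 2 and 8. Selenom rose by 0.50 at 24 months and Selenos by 0.41 at 16 months, and both turned, to -0.10 and -0.073, after median centring. Sephs1 rose by 0.38 at 24 months, with 0.078 under normexp and loess and 0.84 after median centring.

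The list of oxidant producers, 11 genes of superoxide-forming oxidases and related proteins, had 2 rises at 6 months, 5 at 16 months and 4 at 24 months, and 0 falls. The rises at 16 and 24 months include Ucp2, which is a carrier and not an oxidase. Cybb, the catalytic subunit of the phagocyte NADPH oxidase, rose by 1.04 (SE 0.28, adjusted p = 0.0372) at 16 months, with 0.63 under normexp and loess, and Cyba, its membrane partner, by 0.46, 0.62 and 0.48, the last of which turned to -0.12 after median centring. Rac2, a GTPase of the same oxidase, rose by 0.34, 0.40 and 0.37, all negative after median centring, and Ucp2, a mitochondrial carrier, by 0.56 and 0.49 at 16 and 24 months, positive under both scalings. After median centring 1 rose and 1 fell, 4 rose and 1 fell, and 3 rose and 3 fell. The mean log2 ratio of 14 macrophage markers lay between -0.17 and 0.041 at 6 months and between 0.16 and 0.37 at 16 months. At 24 months it lay between -0.087 and 0.66. These markers were not compared with the genes of the list array by array. Their summed Cy3 signal was 33244 to 36113 at 6 months, 56964 to 92174 at 16 months and 28757 to 88746 at 24 months, and their part in the rises was not tested. The B and plasma cell mean was 1.04, 0.65 and 0.40 on the 3 arrays of 16 months and the granulocyte mean -0.53, 1.44 and -1.43, and their part was not tested either.

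**Figure D5:**
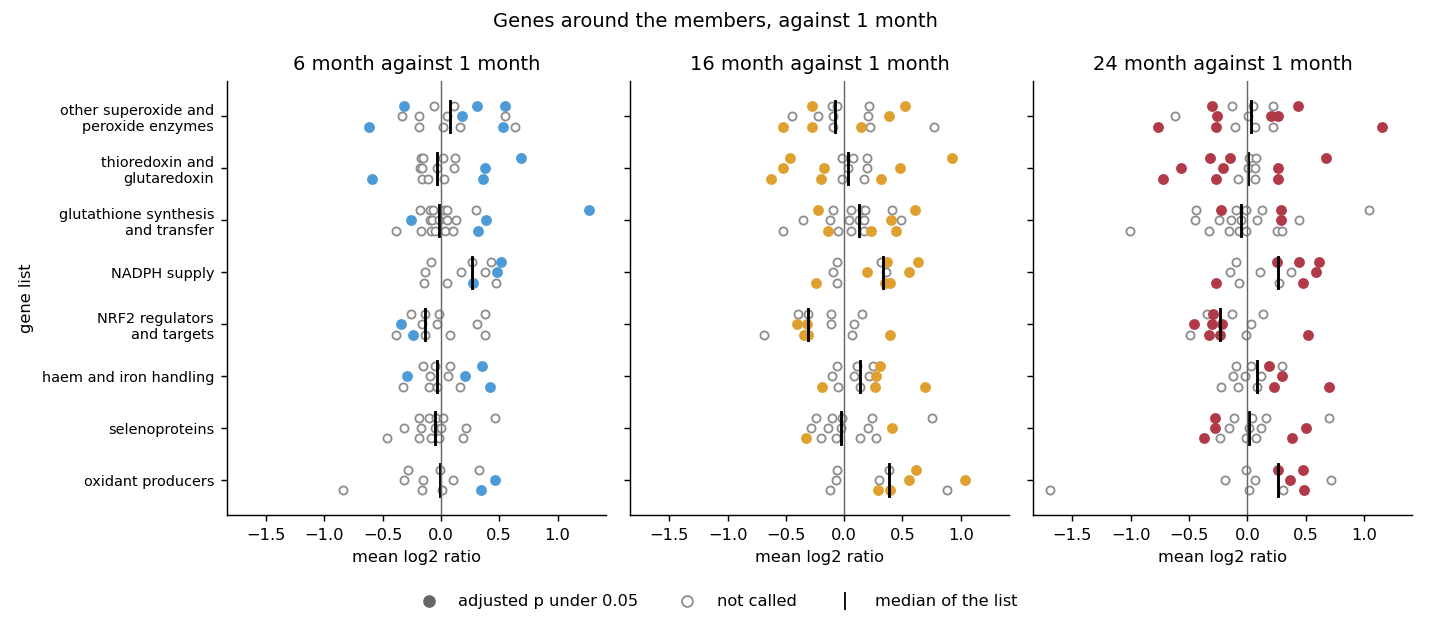
Mean log2 ratio to 1 month (horizontal axis, LOWESS scaling) of each tested gene in 8 lists (vertical axis) at 6, 16 and 24 months. Filled points have an adjusted p under 0.05 and black bars mark the list medians. For the NRF2 list, which mixes regulators and targets, they are -0.14, -0.31 and -0.23. After median centring the medians of the NADPH list turn from positive to negative.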

How the data were processed

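The members and gene lists were chosen with earlier results of these data known. Thymocyte RNA was linearly amplified and hybridized on 9 Agilent 2-colour arrays. The authors deposited scanner files, whose processed intensity per channel was background-corrected and dye-normalized by LOWESS in Feature Extraction, version 7.5.1 per the file headers and 7.1 per the submitters' processing notes. The deposited value table holds a score, which equals the z-score of log10 intensity within a channel when computed from the same files, and was used as an alternative. Both samples of an array carry identical files, so each of the 9 arrays was read once.

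Log2(Cy3/Cy5) of processed intensities was computed after dropping control and outlier spots and averaging spots of a probe. A probe was tested if its Cy3 signal was well above background on every array of 1 age or its Cy5 signal on all 9, with a value on at least 7 arrays (37442 of 41174). limma 3.58.1 in R 4.3.3 fitted 1 mean per age, with Benjamini-Hochberg adjustment over all tested probes, a two-sided threshold of 0.05 and 6 residual degrees of freedom. The 1 month material counts as 1 control sample whose own spread is left out. All members were described, and genes of the other lists were named as up to 4 per list with the largest change past the threshold, except Txn1 and Nfe2l2. For likeness, the 3 genes whose probes among the 13 had the smallest F test p were taken. Alternatives were normexp (offset 50) with loess or median centring, the score, 2 filters, a replicate block, a haemoglobin covariate, the Cy3 channel alone, only the arrays compared and leaving out each array. The fit was tested on simulated data. Other tools were Python 3.11.15, numpy 2.4.6, pandas 2.3.3 and matplotlib 3.10.9.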

Additional observations from a re-analysis of the deposited data

How the results depend on the processing

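Of 39 single probe results followed through the alternatives, 28 were past the threshold and 11 were differences between older ages with arrays that did not overlap. Normexp with loess, no filter on dim probes and a stricter filter changed none of these 39 in direction or call. Median centring turned 14 of them: Cat to -0.16, -0.062 and -0.39 at 6, 16 and 24 months, Gpx1 A_52_P684378 to -0.20 and -0.67 at 16 and 24 months, and Gpx4 to -0.079 and -0.63 at 6 and 24 months. It also turned Gsr A_52_P346738 to -0.031, Prdx2 A_52_P550034 to -0.0090 and Prdx2 A_52_P893440 to -0.17 at 24 months, Prdx2 A_51_P147207 to -0.34, -0.35 and -0.84, and Sod1 A_51_P367381 at 24 against 6 months to -0.35. The Cy3 channel alone turned Sod1 A_51_P425205 at 24 against 6 months to -0.031. The cause was not tested. Prdx1, Txnrd1 and Prdx2 A_52_P550034 at 16 months and Sod1 A_51_P367381 at 6 months kept direction and call under all alternatives that keep every array. For the falls among these, median centring could not have turned the direction. The other 63 differences of member probes were not called with LOWESS scaling. They were either against 1 month or between older ages with overlapping arrays. Of these 63, 35 had the other sign and 12 were called under at least 1 alternative that keeps every array. With haemoglobin as a covariate 2 of the 13 probes were called at 6 months. With only the arrays of the age compared, which leaves fewer samples, 3 were called at 6 months and 0 at 24 months. Leaving out 1 array gave 0 to 6 calls at 6 months, 5 to 6 at 16 months, 5 to 7 at 24 months and 0 between older ages.

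Over all probes, 4633, 6746 and 9339 were called against 1 month at 6, 16 and 24 months. The counts were 19623, 16654 and 26552 after median centring, 458, 3674 and 8516 with the haemoglobin covariate, 1132, 3538 and 0 with only the arrays compared, and 2427 at 6 months with the replicate block. Without replicate 1, 2 or 3 of the age itself they were 1666, 300 and 2530 at 6 months and 3858, 1241 and 3441 at 16 months, and at 24 months 3507 without replicate 1 and 4102 without replicate 2.

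The replicate numbers are shared across ages. Deviations from the age means of same-numbered arrays had correlations between -0.31 and 0.10, and those of differently numbered arrays between -0.26 and 0.33. No pairing by number was seen, though deviations from means of 3 arrays cannot exclude one. With the replicate number as a block, 5, 5 and 6 of the 13 probes were called against 1 month at 6, 16 and 24 months, and 0 between older ages. A block for scan day was not run. With 3 arrays per age, 1 control material and no dye swap, small differences between ages have wide intervals, and differences from 1 month carry the dye.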
